A study of Homo sapiens with 2 samples.

Results

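The Hippo pathway and the genes switched on by its effectors YAP and TAZ were followed in Seg-1 cells. The list held 39 genes, of which 16 were YAP-TEAD targets and 23 were pathway components. A probe set (a group of short oligonucleotides that reports 1 transcript) was taken as a member when its annotation named exactly 1 of these genes. This gave 128 probe sets for 38 genes, out of 41091 single-gene probe sets for 19775 genes on the Affymetrix Human Genome U133 Plus 2.0 microarray. NUAK2, a kinase gene among the targets, had only a probe set that is also annotated to AKIP1 and was not used. CCN1 and CCN2 are the current symbols of CYR61 and CTGF.

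RNA came from 1 culture transfected with siRNA against FGF-AS (an RNA made from the strand opposite the FGF2 gene), and from 1 culture transfected with a negative control siRNA without a match to known genes. Both were Seg-1 cells, an adherent line once taken for esophageal adenocarcinoma and identified, per the labels, as the lung line H460. Both were harvested 72 hours after transfection. Per the labels' protocols the siRNA was used at 25 to 200 nM, and which concentration either culture received is not stated in the labels. With 1 array per group, differences could not be set against variation between cultures, no p-values are given, and the small number of arrays limits precision.

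The Hippo pathway is a kinase relay that restrains growth. The kinases MST1 and MST2 (genes STK4 and STK3), with the scaffold SAV1, activate LATS1 and LATS2, which work with the MOB1 proteins and phosphorylate YAP (YAP1) and TAZ (WWTR1). Phosphorylated YAP and TAZ are held in the cytoplasm or degraded. Unphosphorylated YAP and TAZ enter the nucleus and bind TEAD transcription factors, which recognise the motif GGAATG, and switch on genes such as CCN1, CCN2 and ANKRD1. Cell contact, cell tension and soluble signals feed into the relay, and several of its own brakes (LATS2, AMOTL2, PTPN14) are also reported as YAP targets, as is the LATS-binding protein AJUBA. The activity of the relay lies in phosphorylation, which an RNA array does not measure.

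Deposited signals are linear intensities. An offset of 6.1, the 25th percentile of all signals, was added to both signals before the log2 ratio of FGF-AS siRNA over control siRNA was taken, and it damps the ratios of dim probe sets. A gene is represented by its brightest probe set and counted as measured at a mean signal of at least 23.9, the median over probe sets. That held for 34 of the 38 members, against 12352 of 19775 genes, and 28 members were also at or above 145.2, the 75th percentile (called bright below). The only error available was the disagreement between probe sets of the same gene, an SD of 0.49 for 1 probe set's log2 ratio over 6155 genes. It was 0.36 for bright probe sets and 0.58 for dimmer ones, and it covers no difference between cultures.

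The labels were checked on the targeted transcript. NUDT6, whose gene gives rise to FGF-AS, read 104.5 and 77.8 on its pair of probe sets with FGF-AS siRNA, against 376.9 and 267 with control siRNA, log2 ratios of -1.79 and -1.70. FGF2 read 911.8 with FGF-AS siRNA and 676.2 with control siRNA on its brighter probe set, a log2 ratio of 0.43. Its other probe set differed little, at 338.8 with FGF-AS siRNA and 326.7 with control siRNA (0.05). AGO2, the slicing Argonaute, read 822.2 with FGF-AS siRNA and 1268.4 with control siRNA. Of 5 lung epithelial markers with a probe set, NKX2-1 was under the minimum signal, NAPSA, SFTPB and SFTPC were dim and KRT7 was bright, while KRT8 and KRT18, keratins of simple epithelia, read 3475.7 or more on both arrays. CDH1, the epithelial cadherin, was under the minimum. In RNA from a whole culture, fewer cells of a kind and less RNA per cell cannot be told apart.

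The lowest log2 ratios among the measured targets were those of CCN2 and CCN1, which encode secreted matricellular proteins widely used as readouts of YAP activity. CCN2 read 530.2 with FGF-AS siRNA and 1452.2 with control siRNA, a log2 ratio of -1.44 (2.72-fold lower), and 0.899% of measured genes had a ratio as low. CCN1 read 524.8 with FGF-AS siRNA and 1224.2 with control siRNA on its brighter probe set, a log2 ratio of -1.21, which 1.45% of measured genes reached. The other CCN1 probe set read 202.9 with FGF-AS siRNA and 571.3 with control siRNA, a log2 ratio of -1.47. All 3 probe sets of this pair of genes were therefore more than 2-fold lower, and they differed among themselves by less than the bright probe set SD of 0.36. CCN1 and CCN2 were known to be lower in these arrays when the list was drawn up, so their ratios are a description.

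**Figure D1:**
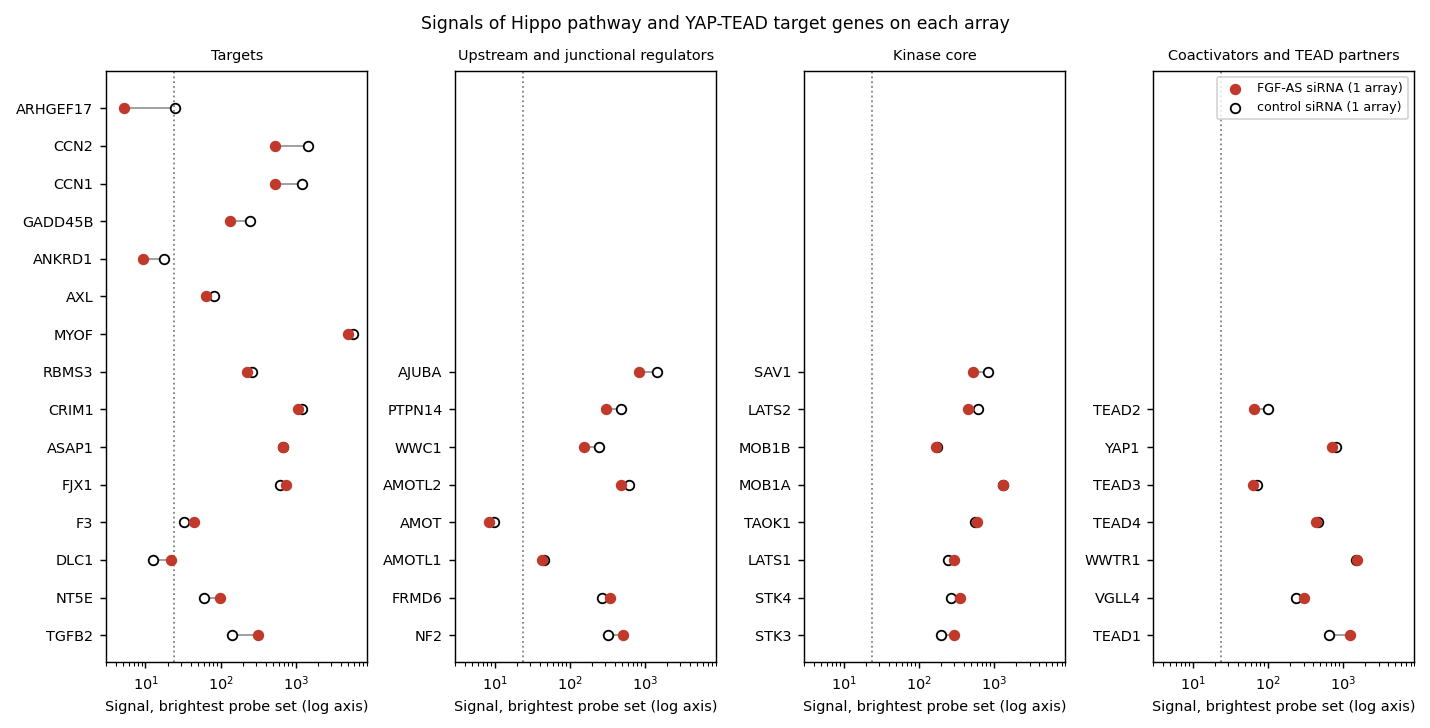
Signal of the brightest probe set of each of the 38 genes (horizontal log axis) with FGF-AS siRNA (filled red) and control siRNA (open), 1 array each, in 4 panels by role. The dotted line marks the minimum signal of 23.9, and signals of different genes come from different probes and cannot be ranked against each other. The red points of CCN2 (530.2) and CCN1 (524.8) lie left of their open points (1452.2 and 1224.2), and that of TGFB2 (311.3) lies right of its open point (143).

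GADD45B, a stress-induced signalling adaptor, was the third target at least 1.5-fold lower. It read 134.3 with FGF-AS siRNA and 243.4 with control siRNA, a log2 ratio of -0.83. Its 2 dimmer measured probe sets were lower by less, at -0.31 and -0.23, so the size of the difference was not settled by the array.

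MYOF, the membrane repair protein myoferlin, was lower by a small amount on each of its 3 measured probe sets. Its brightest read 4953.7 with FGF-AS siRNA and 5867.5 with control siRNA, a log2 ratio of -0.24, and the others gave -0.53 and -0.46. RBMS3, an RNA-binding protein gene, had log2 ratios below 0 on all 5 measured probe sets, from -1.53 to -0.10, and its brightest read 224.7 with FGF-AS siRNA and 261.7 with control siRNA (-0.21). The lowest RBMS3 ratio came from a dim probe set (11 with FGF-AS siRNA and 43.3 with control siRNA). AXL, a receptor tyrosine kinase gene, read 64 with FGF-AS siRNA and 82.7 with control siRNA (-0.34), within the SD of a dim probe set.

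Other targets differed by less than the disagreement between probe sets, or had probe sets that pointed both ways. CRIM1, a transmembrane regulator of bone morphogenetic proteins, had log2 ratios from -0.21 to 0.09 on 3 probe sets. ASAP1, an activator of Arf GTPase hydrolysis, had ratios from -0.50 to 0.09 on 5. FJX1, the human relative of the fly gene four-jointed, read 752.9 with FGF-AS siRNA and 621.1 with control siRNA (0.28), and F3, tissue factor, read 44.6 with FGF-AS siRNA and 32.2 with control siRNA (0.40).

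TGFB2 and NT5E went the other way from CCN1 and CCN2. The brightest probe set of TGFB2, which encodes the cytokine TGF-beta 2, read 311.3 with FGF-AS siRNA and 143 with control siRNA, a log2 ratio of 1.09. Its other measured probe sets gave 0.54, -0.11 and -0.99, a spread (SD 0.89) wider than for a typical gene, so TGFB2 had no common direction. NT5E, the ectoenzyme CD73, read 98 with FGF-AS siRNA and 60.7 with control siRNA (0.64), and its 2 other measured probe sets gave 0.34 and 0.01. All 3 NT5E ratios were above 0, and all 3 probe sets were dim.

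ANKRD1, ARHGEF17 and DLC1 stayed under the minimum signal. ANKRD1, a nuclear ankyrin repeat protein and a standard YAP target, read 9.2 with FGF-AS siRNA and 17.6 with control siRNA. ARHGEF17 read 5.1 with FGF-AS siRNA and 24.6 with control siRNA. DLC1 had 5 probe sets that all averaged under the minimum. Detection calls were not used here, so such signals cannot be told from background and no fold is given for these genes.

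Over the 12 measured targets the median log2 ratio was -0.21, beside -0.02 over all measured genes. Of these targets, 7 were below 0, beside 51.8% of measured genes. At least 1.5-fold lower were 3 of 12 (CCN1, CCN2 and GADD45B), beside 9.52% of measured genes, and at least 1.5-fold higher were 2 of 12 (TGFB2 and NT5E), beside 7.96%. Past 2-fold, 2 were lower (beside 2.72%) and 1 was higher (beside 2.05%). The background split depends on scaling: of all measured genes past 1.5-fold, 45.5% were higher, against 61.9% under quantile normalization and 59.3% under loess, whereas 3 lower and 2 higher targets were counted under each of these. Without CCN1 and CCN2, which were known to be lower beforehand, the target median was -0.09 over 10 genes. Of these 10, 1 was at least 1.5-fold lower, beside 9.52%, and 2 were at least 1.5-fold higher, beside 7.96%. At 2-fold, 0 were lower, beside 2.72%, and 1 was higher, beside 2.05%. Without probe sets whose names end in _s_at or _x_at (which can match several transcripts) the target median was 0.03 over 9 targets. The target list as a whole thus had members on both sides of 0, with the lowest ratios in CCN1 and CCN2.

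The upstream and junctional regulators were the component group with the lowest ratios. AJUBA, a LIM-domain protein that binds LATS kinases at junctions, read 834.5 with FGF-AS siRNA and 1460 with control siRNA, a log2 ratio of -0.80. The next AJUBA probe set read 555.5 with FGF-AS siRNA and 1082.4 with control siRNA (-0.95), and the third measured one gave -0.54. PTPN14, a phosphatase that holds YAP in the cytoplasm, read 305.9 with FGF-AS siRNA and 490.5 with control siRNA (-0.67), with -0.15, -0.36 and -0.42 on its other 3. All measured probe sets of both genes were lower, and for AJUBA they were close to each other (SD 0.21).

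WWC1 (KIBRA), a scaffold that activates LATS with NF2, read 154.9 with FGF-AS siRNA and 243.7 with control siRNA, a log2 ratio of -0.63, and its 2 other measured probe sets, both dim, gave -0.43 and -0.30. AMOTL2, an angiomotin that binds YAP at tight junctions, read 476.9 with FGF-AS siRNA and 626.8 with control siRNA (-0.39) on its only probe set. AMOTL1 was dim with ratios of -0.09 and -0.13, and AMOT, read at 8.5 with FGF-AS siRNA and 9.7 with control siRNA, was under the minimum. Thus 5 of the 7 measured genes of this group were below 0, beside 51.8% of measured genes, and 3 were at least 1.5-fold lower, beside 9.52%.

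NF2 and FRMD6 were the exceptions. NF2 encodes merlin, the tumour suppressor that brings LATS to the membrane, and its brightest probe set read 519.3 with FGF-AS siRNA and 323.9 with control siRNA, a log2 ratio of 0.67. Of its 6 measured probe sets 4 were above 0, while a dim one gave -0.90 (38.8 with FGF-AS siRNA and 77.8 with control siRNA). FRMD6, a FERM-domain protein of the same branch, had ratios of 0.35 and 0.18. The NF2 probe sets did not share a direction, and the FRMD6 ratios were within the bright probe set SD.

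**Figure D2:**
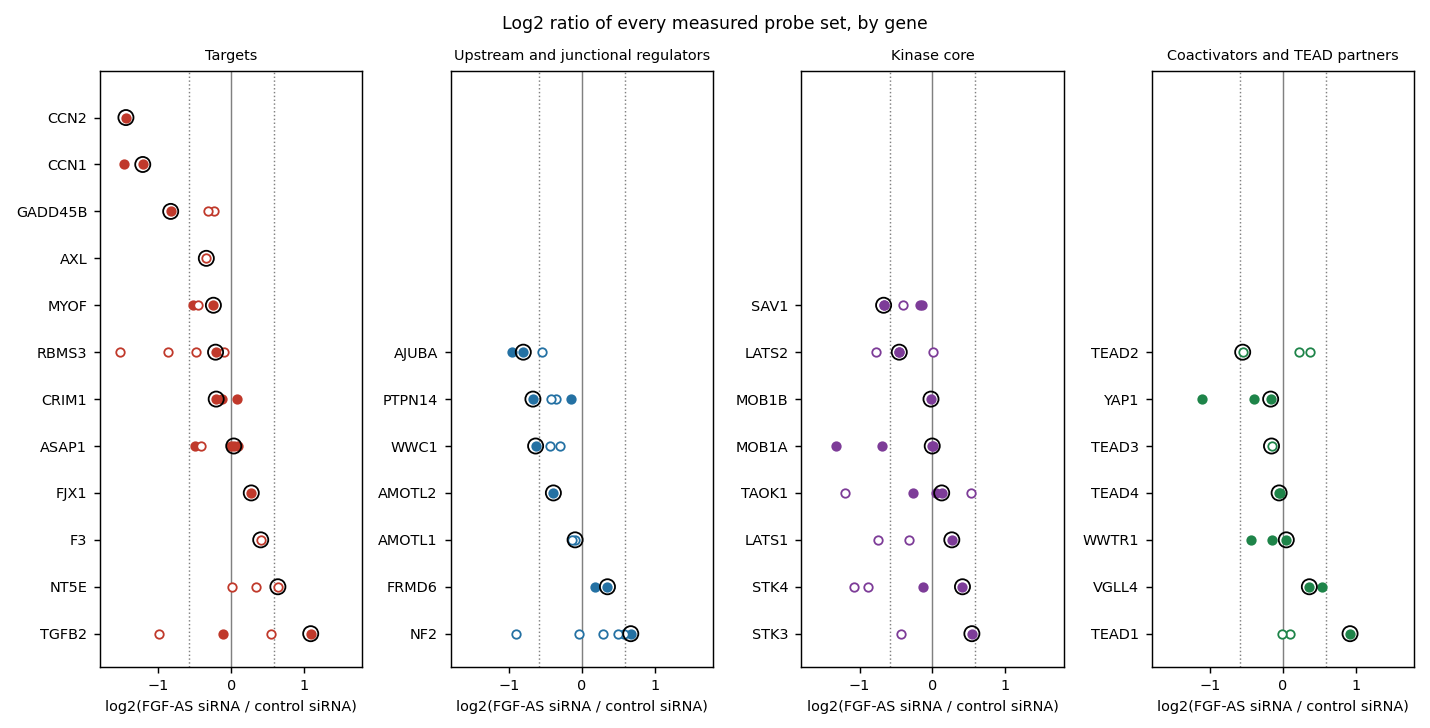
Log2 ratio of FGF-AS siRNA over control siRNA (horizontal axis) for every measured probe set of the 34 measured genes, in 4 panels by role. Filled points are bright probe sets (mean signal at least 145.2), open points are dimmer ones, a black ring marks the brightest of the gene, and dotted lines mark 1.5-fold. All points of CCN1, CCN2, AJUBA, PTPN14, SAV1 and WWC1 lie left of 0, while those of TGFB2, NF2, STK4 and TAOK1 lie on both sides.

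In the kinase core, SAV1 was the member that differed most evenly. This scaffold of the MST kinases read 524.6 with FGF-AS siRNA and 838.2 with control siRNA, a log2 ratio of -0.67, and its next probe set read 368.1 with FGF-AS siRNA and 588.1 with control siRNA (also -0.67). The other 3 gave -0.18, -0.15 and -0.41, so all 5 were below 0 but only these 2 passed 1.5-fold. LATS2, which phosphorylates YAP, read 455.3 with FGF-AS siRNA and 626.4 with control siRNA (-0.46), with -0.46 on its second bright probe set, -0.78 on a dim one and 0.00 on the dimmest.

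The MST kinase genes were higher on their brightest probe sets and lower on their other measured ones. STK3 read 293.5 with FGF-AS siRNA and 199.9 with control siRNA (0.54), against -0.43 on its dim probe set. STK4 read 358.3 with FGF-AS siRNA and 267.9 with control siRNA (0.41), against -0.13 on another bright probe set and -1.08 and -0.88 on dim ones. LATS1 followed the same pattern with 0.27 on the brightest and -0.33 and -0.75 on the others. None of these genes had a common direction across its probe sets.

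MOB1A, an activating partner of LATS, was split between its probe sets. The brightest pair gave 0.00 and 0.00 (1310.9 with FGF-AS siRNA and 1313.9 with control siRNA on the first), whereas the other pair gave -0.70 and -1.32 (171.8 with FGF-AS siRNA and 437.4 with control siRNA on the last). All 4 names end in _s_at and all 4 are bright, so the split was wider than the bright probe set SD of 0.36. MOB1B, its close relative, gave -0.02. TAOK1, a kinase that activates the MST kinases, gave 0.13 on its brightest and from -1.20 to 0.53 over 5. For the core as a whole the median was 0.06 over 8 genes. Of these, 4 were below 0, beside 51.8% of measured genes, and 4 above. SAV1 alone was at least 1.5-fold lower, beside 9.52% of measured genes.

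The coactivators themselves differed little on their brightest probe sets. YAP1 read 723 with FGF-AS siRNA and 814.6 with control siRNA (-0.17), and WWTR1 read 1541.9 with FGF-AS siRNA and 1495.7 with control siRNA (0.04). The other YAP1 probe sets were lower, at -0.40 and, for the dimmest of the 3, at -1.12 (163.1 with FGF-AS siRNA and 361 with control siRNA). The other WWTR1 probe sets gave -0.44 and -0.15. All 3 YAP1 ratios were below 0, but they spanned more than 2 of the bright probe set SDs of 0.36.

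TEAD1 was the highest component. This DNA-binding partner of YAP read 1251.8 with FGF-AS siRNA and 659.7 with control siRNA, a log2 ratio of 0.92, which 2.66% of measured genes reached. Its other probe sets were dim and gave 0.09 and -0.02, so the difference rests on 1 probe set. TEAD4 gave -0.05 and -0.04, and the dim TEAD3 gave -0.16. TEAD2 was dim and split, at -0.55, 0.22 and 0.37. VGLL4, a TEAD-binding repressor that competes with YAP, read 304.3 with FGF-AS siRNA and 235.8 with control siRNA (0.36), and its other probe set gave 0.53. No gene of this group was past 1.5-fold lower, beside 9.52% of measured genes.

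Over the 22 measured components the median log2 ratio was -0.04, and 13 were below 0, beside 51.8% of measured genes. At least 1.5-fold lower were 4 (AJUBA, PTPN14, SAV1 and WWC1), beside 9.52%. Another 2 were at least 1.5-fold higher (TEAD1 and NF2), beside 7.96%. None passed 2-fold in either direction, beside 2.72% of measured genes lower and 2.05% higher. The target median minus the component median was -0.17, a difference for which 1 array per group gives no error. It was -0.21 among bright genes, -0.05 without CCN1 and CCN2 and 0.07 without _s_at and _x_at probe sets. Without the 4 components that are also reported targets it was -0.23 (-0.34 among bright genes), and with these 4 counted as targets it was -0.31 (-0.52 among bright genes). Its size and sign thus depended on which genes and probe sets were counted.

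The 4 components that are also reported targets (AJUBA, PTPN14, LATS2 and AMOTL2) were all below 0, between -0.80 and -0.39, with a median of -0.56. Of their 12 measured probe sets 11 were below 0, beside 56.7% of all measured single-gene probe sets. The 18 other measured components had a median of 0.02, with 9 below 0, beside 51.8% of measured genes, and 9 above. Counted as targets, these 4 bring the target median to -0.29 over 16 genes, with 11 below 0, beside 51.8% of measured genes. At least 1.5-fold lower were then 5, beside 9.52%, and 2 were at least 1.5-fold higher, beside 7.96%. How these 4 were set apart rests on reports of YAP targets and was decided with earlier results of these arrays known.

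**Figure D3:**
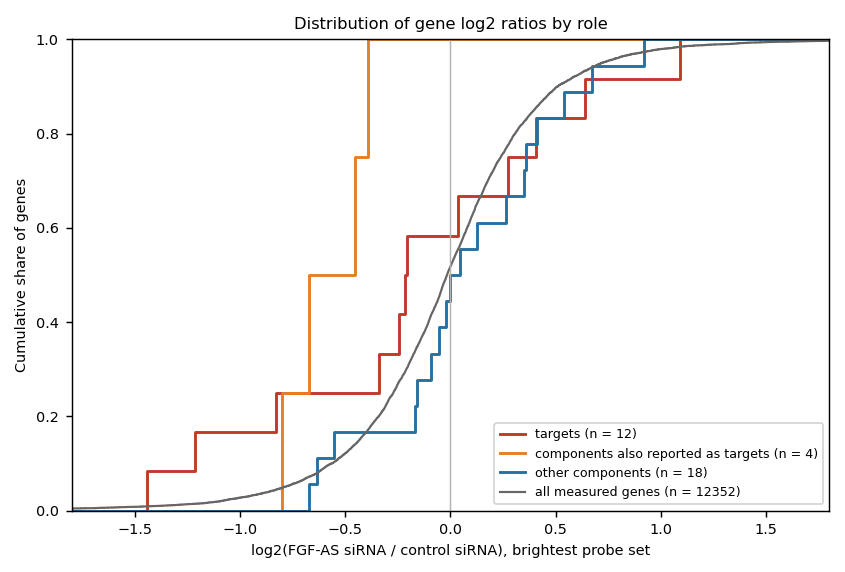
Cumulative share of genes (vertical axis) against the log2 ratio of FGF-AS siRNA over control siRNA for 12 targets, 4 components also reported as targets, 18 other components and 12352 measured genes. The line of the 4 lies wholly left of 0 (-0.80 to -0.39), while the targets run from -1.44 to 1.09 and cross the line of all genes.

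Agreement between probe sets was counted for the 27 members with 2 or more measured probe sets. In 11 all probe sets were below 0, beside 31.4% of the 6155 genes with several, in 3 all were above 0, beside 17.7%, and in the other 13 they pointed both ways. The 3 with all above 0 were NT5E, FRMD6 and VGLL4. The SD of 1 probe set was 0.47 within members and 0.49 over all genes, so the members' probe sets disagreed about as much as those of other genes. Of the 98 measured member probe sets, 68.4% were below 0, beside 56.7%, 22 were at least 1.5-fold lower, beside 15.1%, and 4 were at least 1.5-fold higher, beside 7.53%.

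**Figure D4:**
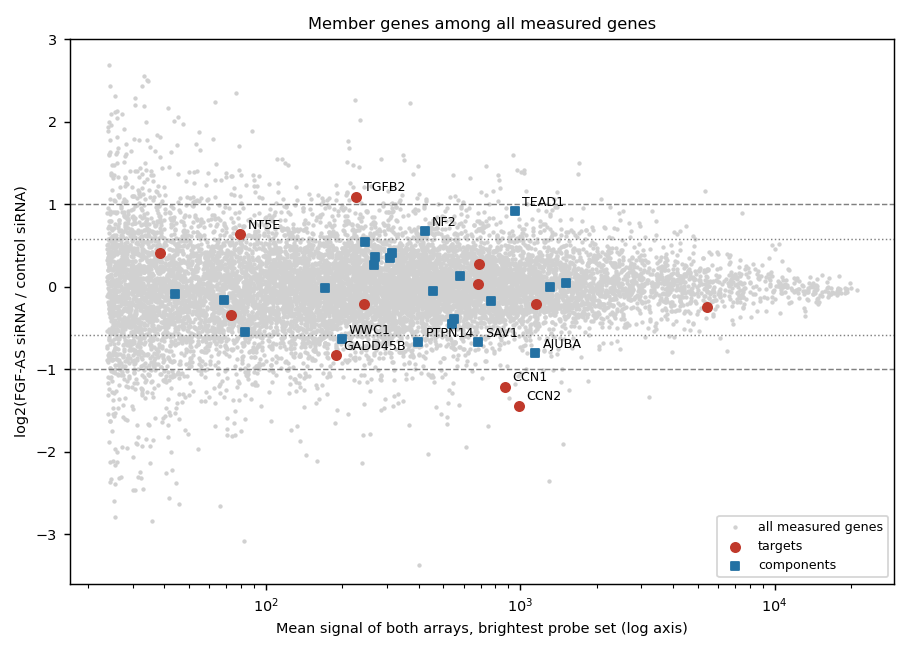
Log2 ratio of FGF-AS siRNA over control siRNA (vertical axis) against the mean signal of both arrays (log axis) for all measured genes (grey), targets (red circles) and components (blue squares), with genes past 1.5-fold named. Dotted and dashed lines mark 1.5-fold and 2-fold. CCN1 (-1.21) and CCN2 (-1.44) lie under the 2-fold line, and TGFB2 (1.09) lies above it.

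The promoters of the members were searched for the TEAD motif, since CCN2 and the 4 components reported as targets were lower together. The letters searched were GGAATG and its reverse complement CATTCC, in the 300 bases from 250 before to 50 after each start site listed by RefSeq (GRCh38.p14). Promoters were listed for 31 of the 39 genes, and CCN1, TEAD1, TEAD4, CRIM1, ARHGEF17, ASAP1, DLC1 and STK3 had no entry. The CCN2 promoter held 3 copies, which start at -169, -104 and -95 from the start site, and 0.165% of all genes in the table had a promoter with 3 or more. The 250 bases before the CCN2 start site (chr6:131951373-131951622, minus strand) are shown because they carry all 3 copies, with the motif in capitals.
CCN2: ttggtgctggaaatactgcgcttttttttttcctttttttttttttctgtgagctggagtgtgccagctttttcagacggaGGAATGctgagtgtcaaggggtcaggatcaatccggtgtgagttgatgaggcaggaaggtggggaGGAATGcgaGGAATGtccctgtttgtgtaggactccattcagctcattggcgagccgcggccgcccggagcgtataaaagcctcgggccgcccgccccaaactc

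All 4 components reported as targets had the motif in a listed promoter, beside 1 of the 16 other components with an entry, 5 of 11 targets and 16.7% of all 27305 genes. The 4 were set apart as reported YAP targets with earlier results known, so their share is a description and no test. Genes with several listed start sites had more sequence searched. Counted by promoter, the share was 41.7% of 12 for targets, 15.6% of 32 for components and 14.0% of 35116 for the table. In LATS2 the motif lies 10 bases after the start site and is not shown. The sites of the other 3, with 12 bases on each side, were at chr14:22976884-22976913 (AJUBA, minus strand, 1 of 2 start sites), chr3:134374499-134374528 (AMOTL2, minus strand, 1 of 2 start sites) and chr1:214551785-214551814 (PTPN14, minus strand). TGFB2 (chr1:218345139-218345168, plus strand), which was higher on its brightest probe set, and YAP1 (chr11:102110273-102110302, plus strand), the only other component with the motif, are shown beside them.
AJUBA: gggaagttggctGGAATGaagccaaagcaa
AMOTL2: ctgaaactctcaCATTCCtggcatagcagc
PTPN14: cctcccgggccgCATTCCtccccgcccccg
TGFB2: tgtcagggcgcaCATTCCacctccttcctc
YAP1: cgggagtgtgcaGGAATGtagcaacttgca

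The 8 measured members with the motif were CCN2 and the 4 components reported as targets, whose lower ratios prompted the search and are not counted again here, and AXL (-0.34), YAP1 (-0.17) and TGFB2 (1.09). Over all measured genes the values with and without a match lay close together, with 52.9% below 0 among 1511 genes with it (median -0.02) and 51.8% among 8577 without it (median -0.02). A match of these letters is a description of sequence, and binding was not measured.

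Other genes of the pathway were read from a wider list. Of 28 measured Hippo components outside the members, none was at least 1.5-fold lower, beside 9.52% of measured genes, and 2 were at least 1.5-fold higher, beside 7.96%, with a median of 0.04. The dim MAP4K1 (0.89) and RASSF5 (0.90) were the higher ones. Among the bright genes of that list the lowest were MAP4K4, a kinase that acts on LATS beside the MST kinases (269.8 with FGF-AS siRNA and 401.5 with control siRNA, -0.56), and SLMAP, a subunit of the phosphatase complex that opposes the MST kinases (475.8 with FGF-AS siRNA and 704.5 with control siRNA, -0.56). The highest were MOB4, of the same complex (0.26), and STRN, a striatin scaffold (0.21).

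Of 14 other measured genes reported as YAP-TEAD targets, 7 were below 0, beside 51.8% of measured genes, and 7 above, with a median of -0.07. At least 1.5-fold lower were 3, beside 9.52% of measured genes, and 1 was at least 1.5-fold higher, beside 7.96%. The lower ones were IGFBP3, a binding protein of insulin-like growth factors (2449 with FGF-AS siRNA and 3728 with control siRNA, -0.60), the dim CCDC80 (-0.73) and the dim NEDD9 (-1.30). The other measured NEDD9 probe sets gave -0.48, -0.04 and 0.04, so only its brightest passed 1.5-fold. CAVIN2, a caveolar coat protein, was next among bright genes (-0.50). The highest were DKK1, a secreted Wnt inhibitor (471 with FGF-AS siRNA and 215.3 with control siRNA, 1.11), and DOCK5, a Rac exchange factor (0.52). This wider list therefore showed no common direction.

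CCN1 and CCN2 are also targets of the actin-sensing MRTF-SRF factors, so that list was read beside them. Of its 10 measured genes 6 were below 0, beside 51.8% of measured genes, with a median of -0.05. ACTA2, smooth muscle actin, was far lower (351.3 with FGF-AS siRNA and 1141.3 with control siRNA, -1.68), followed by TPM1, a tropomyosin (-0.32), while ZYX, zyxin (0.46), and ACTB, beta-actin (0.10), were the highest bright genes. SRF itself was dim and split, with 0.01 on its brightest probe set and 1.76 on the other (108 with FGF-AS siRNA and 27.7 with control siRNA). CALD1, the actin-binding protein caldesmon, gave -0.15 on its brightest probe set (2595.4 with FGF-AS siRNA and 2875.9 with control siRNA). Of its 7 other measured probe sets, 5 were at least 1.5-fold lower, at -0.67, -0.79, -0.85, -1.09 and -1.12, beside 15.1% of all measured single-gene probe sets. The remaining ones gave 0.13 and 0.00. By brightest probe set, ACTA2 was the only gene of the list past 1.5-fold. That is 1 of 10 lower and 0 higher, beside 9.52% and 7.96% of measured genes.

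Markers of other cells were read because fibroblasts express CCN1 and CCN2 strongly. The summed signal of 7 fibroblast markers was 369.4 with FGF-AS siRNA and 565.1 with control siRNA, and COL3A1 (104.6 with FGF-AS siRNA and 316.4 with control siRNA) was the only one at least 1.5-fold lower. The COL3A1 difference was larger than that of the sum, so the other markers together were not lower. COL1A2, LUM and PDGFRB were under the minimum on average, while COL1A1 gave -0.11, the dim DCN -0.39 and the dim THY1 0.43. The COL1A1 ratio rests on 1 probe set (151.6 with FGF-AS siRNA and 164.3 with control siRNA), as its others were under the minimum. Sums for endothelial, leukocyte, squamous and intestinal markers lay between 64.5 and 88.5 with FGF-AS siRNA and between 51.8 and 124.9 with control siRNA, and CDH5, PTPRC, KRT5 and CDX2 were under the minimum. All the measured markers of these 4 lists were dim. At least 1.5-fold lower, beside 9.52% of measured genes, were the intestinal and glandular TFF1 (-1.06) and MUC2 (-0.94), the leukocyte marker CD14 (-0.96) and the squamous marker SPRR1A (-0.63). VIL1 (0.31), CD3E (0.57) and PECAM1 (0.33) were above 0. Of the lung epithelial markers the dim SFTPC was at least 1.5-fold higher, beside 7.96% (59.1 with FGF-AS siRNA and 14.7 with control siRNA, 1.65). The part of such cells in the CCN1 and CCN2 difference was not tested.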

How the data were processed

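RNA was measured on 2 arrays, 1 per group. The authors deposited 1 linear intensity per probe set and array. GCOS and MAS5 appear in the submitters' processing notes without version or role, and how the authors scaled the arrays against each other is not stated there. Medians of the deposited intensities were 23.1 with FGF-AS siRNA and 25.5 with control siRNA over 54613 probe sets, after 62 Affymetrix controls were left out.

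Single-gene probe sets (41091) were named through the platform annotation, with 41037 found by gene identifier in RefSeq's GRCh38.p14 table; 1801 probe sets with several symbols and 11721 unnamed here were not used. Log2 ratios, gene summaries and counts were computed in Python 3.11.15 with numpy 2.4.6 and pandas 2.3.3, with no further scaling. Alternatives were other offsets (1 and 24.3), 3 scalings (loess with statsmodels 0.14.6, span 0.3), other minimum signals, other gene summaries and other roles. The calculation was tested on simulated data. All 39 members are named, with NUDT6, FGF2 and AGO2 as a check of the labels, and, from each wider list, the 2 highest and 2 lowest bright genes and those past 1.5-fold. The members, lists, roles and thresholds were chosen with earlier results of these data known. Genes of the wider lists named outside this rule (SRF, CALD1 and cell type markers), and the ratios set beside the motif, were chosen after their values were seen. With 1 array per group no test was run.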

Additional observations from a re-analysis of the deposited data

How the results depend on the processing

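Over the alternatives the target median ran from -0.29 to 0.03 and the component median from -0.17 to 0.02, and the difference between them from -0.31 to 0.07. Of 293 recalculated ratios of single members, 283 stayed within the SD of 1 probe set of the same brightness (0.36 for bright genes and 0.58 for dimmer ones). Part of these could not move. Another minimum signal leaves a member's ratio as it was. Leaving out _s_at and _x_at probe sets does the same where the brightest has neither ending. The number that stayed is therefore no measure of stability. The 10 that moved further all came from averaging a gene's measured probe sets. Averaging brought TGFB2 to 0.13, TEAD1 to 0.33, NF2 to 0.18, STK3 to 0.06 and GADD45B to -0.46. It took YAP1 to -0.56, MOB1A to -0.50 and RBMS3 to -0.64, each lower than by brightest probe set. STK4 (from 0.41 to -0.42) and LATS1 (from 0.27 to -0.27) changed sign. No member past 1.5-fold reversed. CCN2 ran from -1.45 to -1.39 and CCN1 from -1.34 to -1.16.

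Counts were less stable. Targets at least 1.5-fold lower (3 of 12, beside 9.52% of measured genes) became 5 of 15 with no minimum, beside 14.6%. With the dual components as targets they were 5 of 16, beside 9.52%. When probe sets were counted, an alternative added after seeing the data, they were 7 of 32, beside 15.1%. Targets at least 1.5-fold higher (2 of 12, beside 7.96%) became 1 of 12 with the larger offset, beside 5.76%. They were 1 of 9 at the stricter minimum, beside 5.75%. With averaged probe sets they were 0 of 12, beside 6.61%, and the 2-fold count also became 0. Components at least 1.5-fold lower (4 of 22) became 1 of 22 with averaged probe sets, beside 11.1%. Without _s_at and _x_at probe sets they were 2 of 18, beside 10.7%. With the dual components as targets or left out they were 2 of 18, beside 9.52%, and by probe set 15 of 66, beside 15.1%. Those higher (2 of 22) became 0 with averaged probe sets, beside 6.61%. Median centring, quantile normalization and loess each gave 3 lower and 3 higher components. Beside these, 7.77%, 6.72% and 7.08% of measured genes were lower and 9.40%, 10.9% and 10.3% higher. Components below 0 were then 10, 8 and 10 of 22 (13 without scaling), beside 45.2%, 43.8% and 45.2%. Counted by probe set, 4 of 32 for targets and 4 of 66 for components were at least 2-fold lower. The share of all probe sets past 2-fold is not given here. No paired analysis was possible because each group has 1 array. Low signals limit ANKRD1, ARHGEF17, DLC1 and AMOT.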
